A study of Mus musculus with 3 samples.

Results

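The 9 genes described here are *F3*, *F7*, *F10*, *F13a1*, *Fn1*, *Thbs1*, *Serpinb2*, *Plau* and *Plaur*, whose proteins start clotting, crosslink the clot, form the provisional matrix or dissolve it. They were taken by symbol, and all 9 of 9 were found among the mouse genes counted in each of 3 single-cell RNA libraries. The first library, hSTSG, held cells from human split-thickness skin that had lain for 14 days under the skin of wild-type C57BL6/J mice, with the grafts of 5 mice pooled. The other libraries held bone marrow cells of C57/BL6 mice grown with GM-CSF, which on day 7 were left untreated (Co-Mac) or given vitamin D3 (VD3, 1,25-dihydroxycholecalciferol) at 1e-06 M for 24 h (VD-Mac). The study asked how host macrophages answer to the graft and whether VD3 shifts cultured macrophages toward a Trem2 phenotype. Each condition had 1 library, so that no difference below has a replicate check, and the 95% intervals given cover counting error only.

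Clotting begins when tissue factor, the product of *F3*, is exposed to blood and binds factor VII, the product of *F7*. This pair activates factor X, which yields thrombin, and thrombin turns fibrinogen into fibrin that factor XIII, whose A subunit *F13a1* encodes, crosslinks. Fibronectin (*Fn1*) and thrombospondin 1 (*Thbs1*) are built into this first wound matrix, and urokinase (*Plau*) bound to its receptor (*Plaur*) activates plasminogen to break fibrin down, while the serpin PAI-2 (*Serpinb2*) inhibits urokinase. In wounds, macrophages are known both to make several of these proteins and to clear fibrin.

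Levels are given as CPM, a gene's unique molecular identifiers (UMIs, a count of captured RNA molecules) in each 1e6 gene UMIs of the same cells. Cells with at least 300 genes, under 100000 UMIs and under 10% mitochondrial UMIs were kept, which left 7257 cells with 132574308 UMIs in Co-Mac, 8825 cells with 116461484 UMIs in VD-Mac and 2144 cells with 22646544 UMIs in hSTSG. The kept cells had a median of 15804 UMIs in Co-Mac, 12089 in VD-Mac and 6637.5 in hSTSG. The culture labels were checked with *Cyp24a1*, the VD3-degrading enzyme that VD3 is known to induce. It lay at 315 CPM in VD-Mac (95% interval 312 to 318), while Co-Mac held 1 UMI of it and hSTSG held 0. Few barcodes were shared between libraries, 15 kept ones between Co-Mac and VD-Mac, 3 between Co-Mac and hSTSG and 6 between VD-Mac and hSTSG. Only mouse genes were counted, and whether reads of human cells were assigned to them was not tested.

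In the graft, the 9 genes were spread over different cell classes, with 5 of 9 highest in a class of the monocyte lineage. Of 10269 genes with at least 10 UMIs and 10 CPM in their highest named class, 21.1% were highest there. *F7* was highest in Trem2 macrophage-like cells, *F13a1*, *Fn1* and *Plau* in Cd163 macrophage-like cells, and *Thbs1* in Plac8 monocyte-like cells. *F10* was highest in granulocyte-like cells, *F3* in fibroblast-like cells, and *Plaur* and *Serpinb2* in a small class of mast cell- or basophil-like cells. The count of 5 of 9 was the same when classes under 50 cells were left out, beside 26.6% of all genes, although *Plaur* was then highest in granulocyte-like cells and *Serpinb2* in fibroblast-like cells.

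Classes were named from marker genes that include none of the 9 genes, and the 9 genes were also kept out of the variable genes used for clustering. The monocyte lineage, clustered again by itself, held 304 Trem2 macrophage-like cells, 347 Plac8 monocyte-like cells, 169 Cd163 macrophage-like cells and 142 cells left without a name, whose leading genes were haemoglobins and hair keratins such as *Krt71*. Outside it lay 515 granulocyte-like cells, 301 T or NK cell-like cells, 145 B cell- or plasma cell-like cells, 144 fibroblast-like cells, 25 endothelial cell-like cells, 13 mast cell- or basophil-like cells and 39 unnamed cells. The B cell- or plasma cell-like class was mixed in its markers, since 12 of 12 dendritic cell markers were also detected in it at a summed 2441 CPM. *Ccr7* was the most abundant at 1242 CPM, and no dendritic cell class stood apart under the main settings. Within the lineage, dendritic cell-like classes of 72 and 36 cells stood apart at the 5% mitochondrial limit. At resolution 0.8, and likewise with 30 principal components, such a class of 33 cells stood apart. The name of the Plac8 monocyte-like class is uncertain for 296 of its 347 cells. All 5 markers of the name were detected in them, yet none was among their 10 leading genes, *Mcpt8*, *Il4*, *Csf2*, *Ramp3*, *Il1r2*, *H2-Eb1*, *H2-Aa*, *Ifitm1*, *Hdc* and *H2-Ab1*. The other 51 cells were led by *Lcn2*, *Vcan* and *Ifitm6*, with 3 of the markers among their leading genes. At the 5% mitochondrial limit, resolution 0.3 and 30 principal components, the class was a single cluster of 226, 361 and 293 cells. That cluster held 3, 3 and 4 of the markers among its leading genes. Under the other settings clustered anew, the largest cluster of the class held 0 of them. With the 296 cells left unnamed, a choice made after seeing the data, *Thbs1* was still highest in the Plac8 monocyte-like class, and *F10* was too, at 797 CPM, so that the count came to 6 of 9. The share of all genes highest in the lineage was not taken for this setting. The place of 469 cells in the lineage is uncertain as well, since they came from a monocyte-like cluster whose 10 leading genes, with *Krt71* and *Krt25* first, held 3 erythroid markers and 1 of its own. With these cells and the 296 left unnamed, a choice made after seeing the data, no Plac8 monocyte-like class remained, *Thbs1* was highest in granulocyte-like cells at 3191 CPM, and the count came to 4 of 9. Here, too, the share of all genes highest in the lineage was not taken. The whole class held 3 of 9 mast cell or basophil markers at a summed 136 CPM, with *Mcpt8* at 83.8 CPM and *Cpa3*, *Mcpt4*, *Fcer1a*, *Ms4a2*, *Cma1* and *Tpsb2* at 0, and the part of such cells in its levels was not tested. Among the named classes, granulocyte-like cells were the shallowest, with a median of 2328 UMIs, and fibroblast-like cells the deepest, with 25010.5. Of all graft UMIs, Trem2 macrophage-like cells held 28.0%, Plac8 monocyte-like cells 15.1%, Cd163 macrophage-like cells 11.8% and the unnamed lineage cells 1.70%. Fibroblast-like cells held 16.1% and granulocyte-like cells 6.57%. Keratinocyte markers were near 0, with 6 of 7 detected at a summed 12.2 CPM over the graft, *Krt10* the most abundant at 5.26 CPM and *Krt1* at 0.

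**Figure D1:**
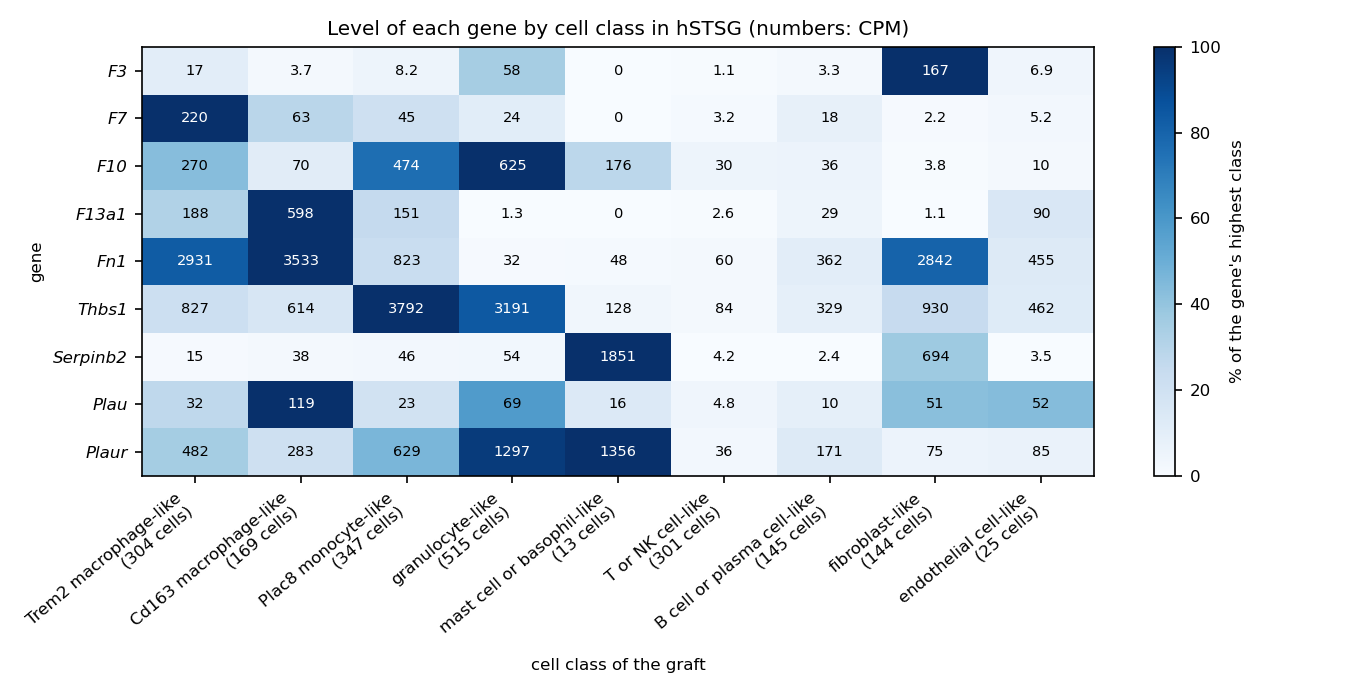
Level of the 9 genes (rows) in the 9 named cell classes of hSTSG (columns, with their numbers of cells). Numbers are CPM and colour is the percent of the gene's own highest class, so colours compare classes within a row only. *F7* stands out in Trem2 macrophage-like cells (220.0 CPM) and *F13a1* in Cd163 macrophage-like cells (598 CPM), while *Fn1* is high in both of these classes and in fibroblast-like cells.

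The initiator *F3* lay at 0.724 CPM in Co-Mac, 2.35 CPM in VD-Mac and 37.9 CPM in hSTSG. Within the graft it reached 167 CPM in fibroblast-like cells (95% interval 154 to 180), 58.5 CPM in granulocyte-like cells (46.8 to 72.1) and 17.2 CPM in Trem2 macrophage-like cells (14.1 to 20.7), and the other 6 named classes lay at or under 8.18 CPM. Fibroblast-like cells, 144 of 2144 with 16.1% of all graft UMIs, held 71.0% of the *F3* UMIs of the graft. When each cell was thinned to 2000 UMIs, so that shares do not follow depth, 17.0% of 141 fibroblast-like cells had an *F3* UMI (51.4% without thinning), and 3 of 144 were too shallow to be thinned. In T or NK cell-like cells, taken as background for free RNA, the thinned share was 0.339% of 295 cells, with 6 left out and a median depth of 5552 UMIs. Tissue factor RNA was concentrated in few cells, since 19 cells held 50% of its UMIs in the graft.

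Factor VII RNA showed a different pattern, with *F7* at 51.5 CPM in Co-Mac, 5.08 CPM in VD-Mac and 81.9 CPM in hSTSG. In the graft it was highest in Trem2 macrophage-like cells at 220.0 CPM (209 to 232). Next came Cd163 macrophage-like cells at 63.0 CPM (53.9 to 73.3) and Plac8 monocyte-like cells at 45.3 CPM (38.4 to 53.0), then granulocyte-like cells at 23.5 CPM (16.4 to 32.7). The unnamed lineage cells, with a median of 1897.5 UMIs, were at 122 CPM from 47 UMIs. *F7* was also among the 10 leading genes of a macrophage-like cluster of 334 graft cells led by *Mmp12*, *Gpnmb* and *Spp1*. The monocyte lineage held 95.2% of the *F7* UMIs (94.1 to 96.1), and fibroblast-like cells, where *F3* was highest, held 0.431%. After thinning, 29.5% of 302 Trem2 macrophage-like cells had an *F7* UMI (70.7% unthinned, 2 left out, median 17157.5 UMIs), compared with 1.02% of T or NK cell-like cells.

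The RNA of tissue factor was highest in the fibroblast-like class, whereas that of its partner was highest in a macrophage-like class.

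Factor X, which both partners activate, is encoded by *F10*, at 128 CPM in Co-Mac, 81.3 CPM in VD-Mac and 206 CPM in hSTSG. Its graft level was 625 CPM in granulocyte-like cells (586 to 667), 474 CPM in Plac8 monocyte-like cells (452 to 498) and 269.5 CPM in Trem2 macrophage-like cells (257 to 283). It lay at 70.1 CPM in Cd163 macrophage-like cells and 3.83 CPM in fibroblast-like cells. *F10* thus separated the Plac8 monocyte-like from the Cd163 macrophage-like cells of the same lineage, in the opposite order to *F13a1*. Thinned shares were 43.3% of 356 granulocyte-like cells (44.9% unthinned, 159 left out, median 2328 UMIs) and 47.8% of 343 Plac8 monocyte-like cells (75.5% unthinned, 4 left out, median 8920.0 UMIs), compared with 2.71% of T or NK cell-like cells. Although granulocyte-like cells had the highest level, they held 19.9% of the *F10* UMIs of the graft, beside 6.57% of all its UMIs. The monocyte lineage held 76.4%, to be read beside the shares of all graft UMIs of its classes given above.

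The fibrin crosslinker *F13a1* lay at 2.29 CPM in Co-Mac, 1.01 CPM in VD-Mac and 154 CPM in hSTSG. In the graft it was at 598 CPM in Cd163 macrophage-like cells (569 to 628), 188.5 CPM in Trem2 macrophage-like cells (178 to 199.5) and 151 CPM in Plac8 monocyte-like cells (138 to 165). Cd163 macrophage-like cells held 46.0% of its UMIs and the whole monocyte lineage 96.4% (95.8 to 97.0), whereas granulocyte-like cells lay at 1.34 CPM and fibroblast-like cells at 1.09 CPM. Factor XIII A is known as a product of macrophages and of platelets. Inside the Cd163 macrophage-like class the level was uneven, with 1391 CPM in the subcluster of 60 cells led by *C6*, *Cd209f* and *Lyve1* and 253 CPM in the subcluster of 109 cells led by *Cd163* and *Ch25h*. Endothelial cell-like cells were at 90.3 CPM, all of it in 2 of their 25 cells. After thinning, 44.2% of 163 Cd163 macrophage-like cells had an *F13a1* UMI (65.7% unthinned, 6 left out, median 13393 UMIs), compared with 0.678% of T or NK cell-like cells.

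Because platelets carry factor XIII A and thrombospondin 1, a list of 9 platelet genes was read beside them. Its summed level was 592 CPM in Co-Mac, 298 CPM in VD-Mac and 798 CPM in hSTSG, and its most abundant gene was *Pf4* in each, at 556 CPM, 290 CPM and 788 CPM. In Cd163 macrophage-like cells 3 of 9 platelet genes were detected at a summed 1511 CPM, of which *Pf4*, a chemokine also made by macrophages, accounted for 1508 CPM, and among the defining markers *Gp9*, *Gp1bb*, *Gp1ba*, *Treml1* and *Tubb1* were at 0. In Trem2 macrophage-like cells 4 of 9 were detected at a summed 1929 CPM, *Pf4* at 1911 CPM, with *Gp9*, *Gp1bb*, *Gp1ba* and *Tubb1* among those at 0. In Plac8 monocyte-like cells 4 of 9 were detected at a summed 239 CPM, with *Pf4* at 235 CPM and *Gp9*, *Gp1bb*, *Treml1* and *Tubb1* among those at 0. The share of platelet RNA in the *F13a1* and *Thbs1* levels was not tested.

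The matrix gene *Fn1* lay at 388 CPM in Co-Mac, 41.1 CPM in VD-Mac and 1934 CPM in hSTSG. In the graft 3 named classes came close to each other, Cd163 macrophage-like cells at 3533 CPM (3462 to 3605), Trem2 macrophage-like cells at 2931 CPM (2889 to 2973) and fibroblast-like cells at 2842 CPM (2787.5 to 2897), and the intervals of the last 2 overlap. The unnamed lineage cells were at 3465 CPM (3281 to 3656), with an interval that overlaps that of Cd163 macrophage-like cells. Fibronectin RNA was thus found in macrophages and in stroma alike. The monocyte lineage held 73.5% of its UMIs (73.1 to 74.0), to be read beside the shares of all graft UMIs given above. Within the Cd163 macrophage-like class, *Fn1* was at 4619 CPM in the *Cd163*- and *Ch25h*-led subcluster and at 1041 CPM in the *C6*- and *Lyve1*-led one, the reverse of *F13a1*. Thinned shares were 80.4% of Cd163 macrophage-like, 79.8% of Trem2 macrophage-like and 90.1% of fibroblast-like cells (88.8%, 93.8% and 95.8% unthinned), compared with 5.42% of T or NK cell-like cells (15.6% unthinned).

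*Thbs1*, whose product binds fibrin and collagen and can activate latent TGF-β, lay at 123 CPM in Co-Mac, 96.8 CPM in VD-Mac and 1307 CPM in hSTSG. It was at 3792 CPM in Plac8 monocyte-like cells (3727 to 3858) and 3191 CPM in granulocyte-like cells (3101 to 3283), and the next classes, fibroblast-like and Trem2 macrophage-like cells, lay at 930.3 CPM and 827 CPM. Thrombospondin 1 RNA thus marked the monocyte-like and granulocyte-like cells more than the macrophage-like ones. The 51 Plac8 monocyte-like cells led by *Lcn2*, *Vcan* and *Ifitm6* were at 5021 CPM and the 296 cells with the uncertain name at 3483 CPM. After thinning, 80.2% of Plac8 monocyte-like and 63.8% of granulocyte-like cells had a *Thbs1* UMI (86.7% and 64.5% unthinned), compared with 4.75% of T or NK cell-like cells (10.3% unthinned). *Fn1* and *Thbs1* were found together in 407 of 1843 thinned graft cells. By class these were 122 of 343 Plac8 monocyte-like, 106 of 302 Trem2 macrophage-like, 69 of 141 fibroblast-like and 57 of 163 Cd163 macrophage-like cells, with fewer in each other class.

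Urokinase RNA was sparse, with *Plau* at 5.08 CPM in Co-Mac, 0.696 CPM in VD-Mac and 43.4 CPM in hSTSG. Among the named classes of the graft it was highest in Cd163 macrophage-like cells at 119 CPM (107 to 133), followed by granulocyte-like cells at 69.2 CPM (56.5 to 84.0). The unnamed lineage cells were at 75.4 CPM (50.5 to 108), from 29 UMIs. The next named classes, endothelial cell-like cells at 52.1 CPM (35.2 to 74.4) and fibroblast-like cells at 50.6 CPM (43.6 to 58.4), had intervals that overlap. Urokinase RNA was thus found in macrophage-like, granulocyte-like and stromal classes. The monocyte lineage held 64.4% of its UMIs (61.3 to 67.4). Of all graft UMIs, Trem2 macrophage-like, Plac8 monocyte-like and Cd163 macrophage-like cells held 28.0%, 15.1% and 11.8%, and the unnamed lineage cells 1.70%. The thinned share in Cd163 macrophage-like cells was 23.9% (69.2% unthinned), compared with 0.339% of T or NK cell-like cells.

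The urokinase receptor *Plaur* lay at 122 CPM in Co-Mac, 33.5 CPM in VD-Mac and 393.5 CPM in hSTSG. It was at 1356 CPM in the 13 mast cell- or basophil-like cells (1083 to 1677), 1297 CPM in granulocyte-like cells (1240 to 1357), 629 CPM in Plac8 monocyte-like cells and 482 CPM in Trem2 macrophage-like cells, and the intervals of the leading pair overlap. Granulocyte-like cells were the highest under 6 of the other settings tried for the graft, among them the 5% mitochondrial limit at 1293 CPM and 30 principal components at 1286 CPM. The RNAs of receptor and enzyme therefore had their highest levels in different classes. After thinning, 74.2% of granulocyte-like and 62.1% of Plac8 monocyte-like cells had a *Plaur* UMI (75.3% and 89.9% unthinned), compared with 2.71% of T or NK cell-like cells, and *Plau* and *Plaur* were found together in 67 of 1843 graft cells.

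The inhibitor *Serpinb2* lay at 5.29 CPM in Co-Mac, 8.06 CPM in VD-Mac and 143 CPM in hSTSG. Its graft level was 1851 CPM in the 13 mast cell- or basophil-like cells (1529 to 2220) and 694 CPM in fibroblast-like cells (667 to 721), while the other 7 named classes lay at or under 53.8 CPM. It differed from *F7*, *F10*, *F13a1*, *Fn1*, *Thbs1*, *Plau* and *Plaur* in that it had only 11.3% of its UMIs in the monocyte lineage (10.2 to 12.4). Of the 242 graft cells with a *Serpinb2* UMI, 14 (5.79%) held 50% of its UMIs, and the 10 cells with the most held 41.4%. Such shares were not taken over all genes. An unnamed cluster of 39 cells with a median of 678 UMIs, led by *Prg2* and *Ccr3* and with *Serpinb2* among its 10 leading genes, carried *Serpinb2* at 3293 CPM and *Thbs1* at 4778 CPM, from 133 and 193 UMIs. In fibroblast-like cells the thinned share was 28.4% (47.9% unthinned), compared with 0.678% of T or NK cell-like cells.

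Most macrophage-like, monocyte-like, granulocyte-like and fibroblast-like graft cells carried RNA of at least 1 of the 9 genes. After thinning, the share was 98.2% of Cd163 macrophage-like, 98.0% of Trem2 macrophage-like and 97.7% of Plac8 monocyte-like cells. It was 97.2% of fibroblast-like and 96.9% of granulocyte-like cells, compared with 15.3% of T or NK cell-like cells. Fewer were found elsewhere, with 15 of 25 endothelial cell-like and 50 of 132 B cell- or plasma cell-like cells. Abundant genes weigh on such shares, since *Fn1* alone was found in 79.8% of thinned Trem2 macrophage-like cells. The shares were not taken for other sets of genes, so whether they are high for this system was not tested. At least 3 of the 9 were found in 59.3% of Trem2 macrophage-like, 56.6% of Plac8 monocyte-like and 50.3% of Cd163 macrophage-like cells, and the most in 1 cell was 7.

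In the order of the 9 named classes, neighbours were often close. Of 8 neighbouring pairs of classes per gene, the intervals of 5 overlapped for *F3*, 5 for *F7*, 4 for *F10*, 3 for *F13a1*, 3 for *Fn1*, 1 for *Thbs1*, 4 for *Serpinb2*, 6 for *Plau* and 2 for *Plaur*.

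Of the 67 other genes of the pathway, kept in 5 lists, 48 had at least 10 UMIs and 10 CPM in their highest graft class. Of these 15 (31.2%) lay there at 4 times or more the next class, beside 14.5% of all 10269 genes. The fibrinogen genes *Fga*, *Fgb* and *Fgg*, the plasminogen gene *Plg* and *Kng1*, chosen after their values were seen, were at 0 UMIs, which allows up to 0.163 CPM over the library, and *F2*, the prothrombin gene, was at 4 UMIs. Genes of the lists were named by the size of their highest level, up to 3 a list. Among coagulation factors these were *Vkorc1*, which recycles vitamin K, at 213 CPM in fibroblast-like cells, *Vwf*, the carrier of factor VIII, at 151 CPM in endothelial cell-like cells, and factor V, *F5*, at 53.8 CPM in granulocyte-like cells. Among anticoagulants and thrombin receptors they were *Tfpi2*, an inhibitor of tissue factor and plasmin, at 99.8 CPM in fibroblast-like cells, and the thrombin receptors *F2rl2*, at 47.9 CPM from 3 UMIs in mast cell- or basophil-like cells, and *F2rl3*, at 17.4 CPM in endothelial cell-like cells. For fibrinolysis, *Plat*, the tissue plasminogen activator, lay at 346 CPM and the collagen receptor *Mrc2* at 249 CPM in fibroblast-like cells. For the provisional matrix, *Postn* lay at 1709 CPM, *Lox*, which crosslinks collagen, at 1036 CPM and *Tnc* at 530.1 CPM in fibroblast-like cells. No matrix or fibrin receptor gene of 11 had a highest class at 4 times the next.

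VD3-treated cultures were compared with untreated ones to see how the same genes differ after 24 h of VD3. *F7*, *Fn1* and *Plaur* were lower in VD-Mac by 10.1-fold, 9.43-fold and 3.64-fold. *F10* and *Thbs1* differed by less than 2-fold, and *F3*, *F13a1*, *Serpinb2* and *Plau* lay under 10 CPM in both cultures. The differences for factor VII and fibronectin RNA were among the largest in the data, at ranks 17 and 20 from the lowest ratio among 7732 genes.

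A gene was called higher or lower if its CPM differed 2-fold or more and came to 10 CPM or more in at least 1 culture. Of the 9 genes 5 reached 10 CPM, and 3 were called lower and 0 higher. Among all 7732 genes that reached 10 CPM, 4.63% were called lower (358) and 2.16% higher (167), so that 31.8% of calls were higher. With mitochondrial and ribosomal protein genes left out of the totals, 235 genes were higher and 319 lower, and 42.4% of calls were higher. The median log2 ratio was −1.87 over the 5 genes, beside −0.10 over all genes.

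**Figure D2:**
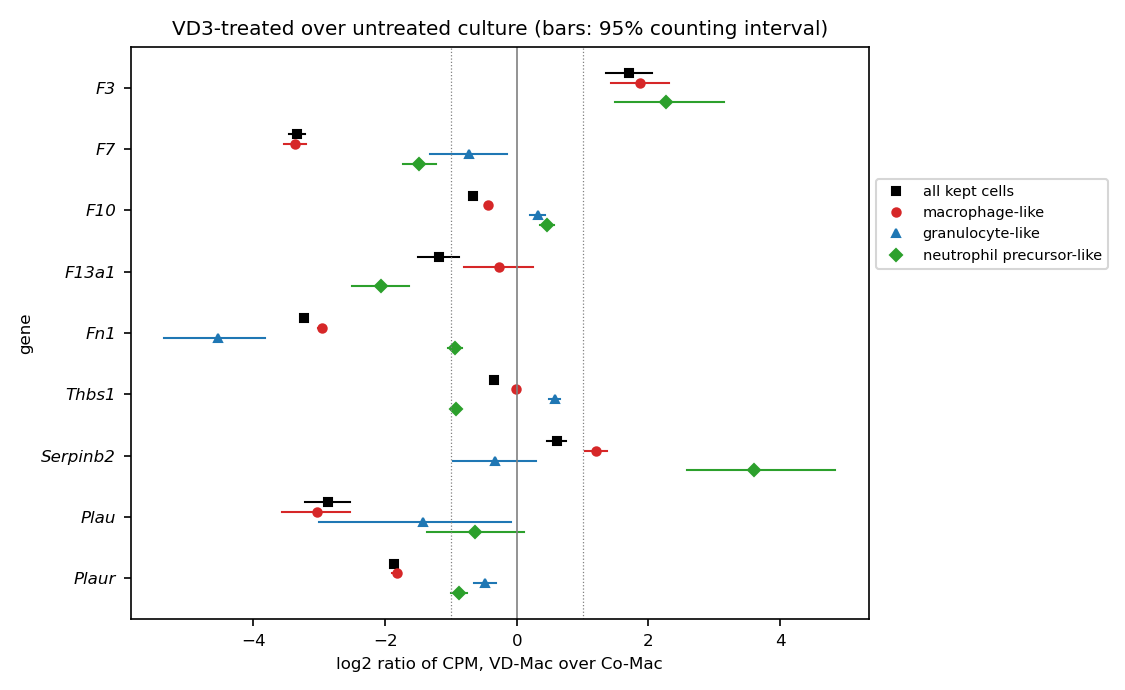
log2 ratio of CPM, VD-Mac over Co-Mac, for the 9 genes (rows) over all kept cells and within 3 cell classes, with 95% counting intervals as bars and dotted lines at 2-fold. Points with fewer than 20 UMIs over both cultures are left out. *F7* and *Fn1* lie left of −1 over all kept cells and in macrophage-like cells, while *F10* and *Thbs1* lie between the dotted lines over all kept cells and in each class.

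*F7* was at 51.5 CPM in Co-Mac and 5.08 CPM in VD-Mac, a log2 ratio of −3.34 (95% interval −3.47 to −3.22). *F10* was at 128 CPM in Co-Mac and 81.3 CPM in VD-Mac, a log2 ratio of −0.66 (−0.70 to −0.62). The RNA of the protease of the initiating pair was therefore lower by an order of magnitude, and that of its substrate by less than the 2-fold limit. *F3* was at 0.724 CPM in Co-Mac and 2.35 CPM in VD-Mac, from 96 and 274 UMIs. Its log2 ratio of 1.70 (1.36 to 2.05) lies on the other side of 0 from that of *F7*, at levels too low to be called, and came to 2.69 when cells were held to under 5% mitochondrial UMIs.

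*Fn1* was at 388 CPM in Co-Mac and 41.1 CPM in VD-Mac, a log2 ratio of −3.24 (−3.28 to −3.19). *Thbs1* was at 123 CPM in Co-Mac and 96.8 CPM in VD-Mac, a log2 ratio of −0.35 (−0.38 to −0.32). Of the matrix genes among the 9, only *Fn1* was thus called. The direction for *Thbs1* turned at the 5% mitochondrial limit, which kept 3125 and 3619 cells, with a log2 ratio of 0.25, and with the mean of per-cell CPM, with 0.21. It also turned, to 0.01, in macrophage-like cells found with approximate principal components, a setting chosen after seeing the data.

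*Plaur* was at 122 CPM in Co-Mac and 33.5 CPM in VD-Mac, a log2 ratio of −1.87 (−1.92 to −1.81), which came to −1.03 at the 5% mitochondrial limit. Its ligand *Plau* was at 5.08 CPM in Co-Mac and 0.696 CPM in VD-Mac, from 674 and 81 UMIs, with a log2 ratio of −2.87 (−3.22 to −2.54). The RNAs of enzyme and receptor of plasminogen activation were both lower in VD-Mac, that of the enzyme at levels under the limit for a call. *Serpinb2*, the inhibitor, was at 5.29 CPM in Co-Mac and 8.06 CPM in VD-Mac, a log2 ratio of 0.61 (0.47 to 0.75), which came to 2.09 at 5% mitochondrial UMIs and to 1.18 with class levels combined at the class shares of Co-Mac, and passed the limit for a call in both. *F13a1* was at 2.29 CPM in Co-Mac and 1.01 CPM in VD-Mac, a log2 ratio of −1.19 (−1.51 to −0.87), which came to −2.15 at the 5% mitochondrial limit and to −0.26 within macrophage-like cells.

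The make-up of the cultures differed in ways that touch these values. Macrophage-like cells held 46.6% of the UMIs of Co-Mac and 28.4% of those of VD-Mac, dendritic cell-like cells 31.8% and 44.3%, neutrophil precursor-like cells 10.3% and 19.9%, and cells without a name 7.19% and 3.37%. By number of cells, dendritic cell-like cells were 37.5% and 39.1%, and those without a name 11.9% and 18.4%. The 12 dendritic cell markers summed to 5006 CPM and 3115 CPM, the reverse of the class's shares, with *Ccl17* the most abundant at 3078 CPM and 1358 CPM and none at 0. The summed level of 10 macrophage markers was 1021 CPM in Co-Mac and 1181 CPM in VD-Mac, with *C1qb* the most abundant at 297 CPM and 445 CPM and none at 0. The 8 monocyte markers summed to 659 CPM and 260.3 CPM, with *Ccr2* the most abundant at 318 CPM in Co-Mac and *Ifitm6* at 84.7 CPM in VD-Mac, and none at 0. Fibroblast markers, a possible further source of *Fn1* and *F3*, summed to 3.23 CPM and 0.249 CPM, with 7 and 4 of 8 detected, *Col1a2* the most abundant in Co-Mac at 0.928 CPM and *Col1a1* in VD-Mac at 0.155 CPM. *Lum* was at 0 in both cultures, and *Col3a1*, *Dcn* and *Mfap5* also in VD-Mac. With class levels combined at the class shares of Co-Mac, which holds the make-up of the 4 compared classes fixed, the log2 ratios were −3.06 for *F7*, −2.82 for *Fn1*, −1.58 for *Plaur*, −0.26 for *F10* and −0.05 for *Thbs1*. Shifts inside the classes stay in these values.

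Within macrophage-like cells, 2075 in Co-Mac and 1614 in VD-Mac, *F7*, *Fn1* and *Plaur* were again lower and *Serpinb2* was higher. These 4 calls among the 9 genes stand beside 8.51% of all genes called lower and 3.96% called higher in this class. *F7* was at 95.5 CPM and 9.29 CPM, *Fn1* at 749 CPM and 95.9 CPM, and *Plaur* at 203.5 CPM and 57.4 CPM, with log2 ratios of −3.36 (−3.53 to −3.20), −2.96 (−3.02 to −2.91) and −1.83 (−1.90 to −1.76). The lower levels of these 3 genes were therefore also present inside the class. *F10* was at 207 CPM and 152.5 CPM and *Thbs1* at 163 CPM and 161 CPM, with log2 ratios of −0.44 and −0.01. *Plau* was at 8.37 CPM and 1.03 CPM. For *Fn1* the share of cells differed too, since 58.4% of thinned macrophage-like cells in Co-Mac and 12.1% in VD-Mac had an *Fn1* UMI (86.8% and 36.6% unthinned, 1 and 4 cells left out, median depths 23867 and 16654.5 UMIs), compared with 1.33% and 0.523% of dendritic cell-like cells. The macrophage markers summed to 1823 CPM and 2043 CPM inside the class and the monocyte markers to 786 CPM and 341 CPM, with *C1qb* at 584 CPM and 765 CPM the most abundant of the former, *Ccr2* at 555 CPM and *Ifitm6* at 135 CPM of the latter, and none at 0. How far a different mixture within the class moves the ratios was not tested.

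The higher *Serpinb2* level in macrophage-like cells, 8.95 CPM in Co-Mac and 20.5 CPM in VD-Mac with a log2 ratio of 1.20 (1.04 to 1.36), came from a small number of cells. It was found in 222 macrophage-like cells of Co-Mac and in 71 of VD-Mac, 10.7% and 4.40%, or 1.83% and 1.30% after thinning. In VD-Mac as a whole, 9 cells held 50% of the *Serpinb2* UMIs, the highest with 204, whereas in Co-Mac 56 cells held 50% and the highest had 20. The thinned shares had overlapping intervals (1.30 to 2.51 and 0.809 to 1.99), so that no difference in the share of positive cells is read from them.

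**Figure D3:**
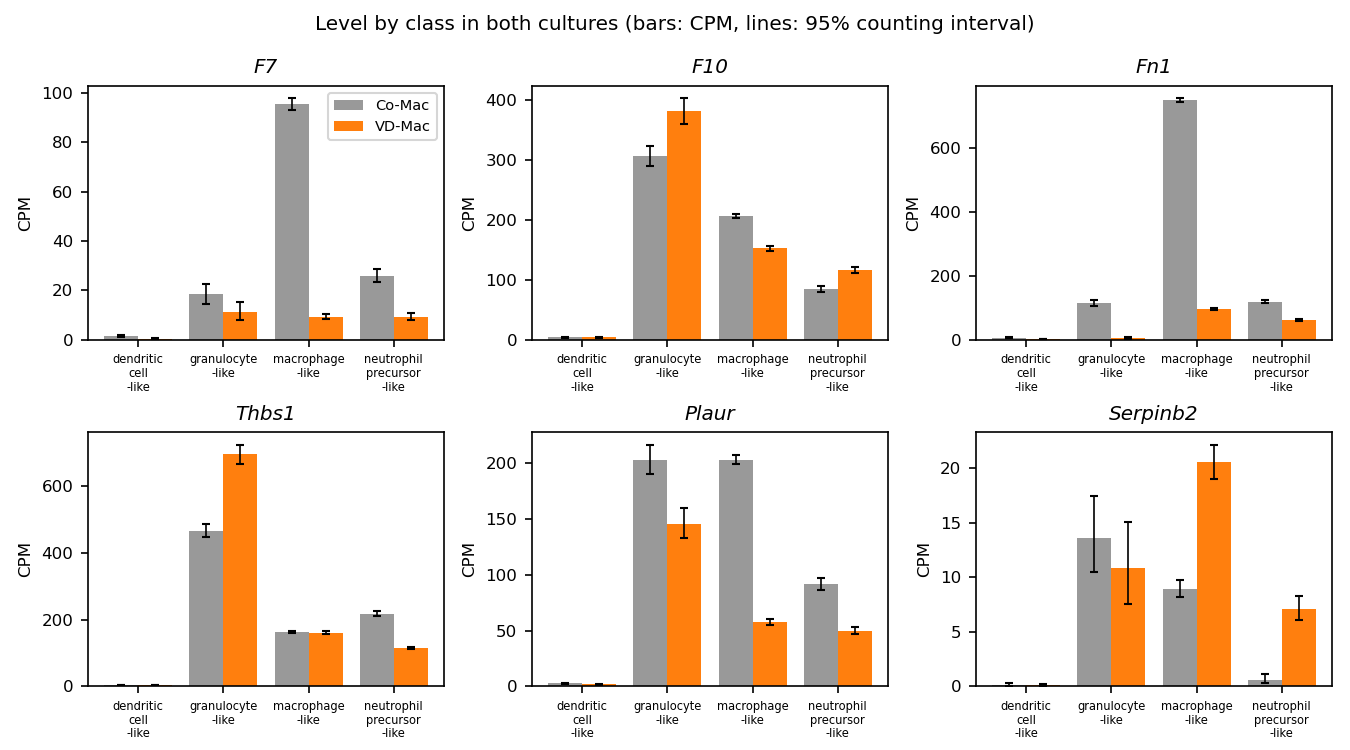
CPM of 6 of the genes in the 4 classes compared between Co-Mac (grey) and VD-Mac (orange), with 95% counting intervals as lines. *F7* and *Fn1* are highest in macrophage-like cells of Co-Mac, at 95.5 CPM and 749 CPM, *Thbs1* is highest in granulocyte-like cells of VD-Mac, at 696 CPM, and all 6 lie under 10 CPM in dendritic cell-like cells.

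Granulocyte-like cells, 922 in Co-Mac and 977 in VD-Mac, had 1 gene of the 9 called lower and 0 higher, beside 2.70% and 2.07% of all genes. A further VD-Mac cluster of 82 granulocyte-like cells, led by *Stfa2* and *Ngp*, was left out because its 10 leading genes held more markers of another set. The gene called lower was *Fn1*, at 115 CPM and 4.95 CPM, with a log2 ratio of −4.54 (−5.36 to −3.83). *Thbs1* was at 467 CPM and 696 CPM, *F10* at 307 CPM and 382 CPM, and *Plaur* at 203.5 CPM and 146 CPM. In both cultures *Thbs1* and *F10* were highest in granulocyte-like cells among the 4 classes compared. In the graft the same class was highest for *F10*, and for *Thbs1* it came next after Plac8 monocyte-like cells.

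Neutrophil precursor-like cells numbered 609 in Co-Mac and 995 in VD-Mac, and 2 of the 9 genes were called lower and 0 higher, beside 5.10% and 6.43% of all genes. *F7* was at 26.0 CPM and 9.33 CPM and *F13a1* at 11.5 CPM and 2.77 CPM, with log2 ratios of −1.48 (−1.73 to −1.23) and −2.06 (−2.50 to −1.63). *F10* lay on the other side of 0, at 85.0 CPM and 116.7 CPM with a log2 ratio of 0.46 (0.36 to 0.56), and was not called. *Serpinb2*, at 0.58 CPM and 7.09 CPM, and *F3*, at 1.10 CPM and 5.27 CPM, were also higher in VD-Mac, at levels too low to be called. *Fn1*, at 119 CPM and 62.1 CPM, and *Thbs1*, at 217 CPM and 115 CPM, lay just inside the 2-fold limit, and both were called lower with approximate principal components, with log2 ratios of −1.16 and −1.03, a setting kept after its results were seen. The name was weak in VD-Mac, where the mean log2 ratio of its markers was 1.91 and that of the macrophage markers came next at 1.08, and stronger in Co-Mac, at 3.70 with granulocyte markers next at 1.83. The 2 clusters were not alike, since that of VD-Mac was led by cell cycle genes such as *Mki67* and *Top2a*, while cycling cells of Co-Mac lay in a macrophage-like cluster. When they were pooled with macrophage-like cells, a choice made after seeing the data, *F7*, *Fn1* and *Plaur* were called lower and *Serpinb2* higher, with log2 ratios of −3.16, −2.95, −1.75 and 1.01. These calls stand beside 384 genes lower and 271 higher of all 7860 in the pooled cells. Dendritic cell-like cells, 2721 and 3449, had all 9 genes under 10 CPM in both cultures, so that 0 were called, beside 2.45% of all genes lower and 2.34% higher.

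Small clusters with platelet genes were found in both cultures. The 63 mast cell- or basophil-like cells of Co-Mac carried 9 of 9 platelet genes at a summed 11056 CPM, and the 51 B cell- or plasma cell-like cells of VD-Mac 9 of 9 at 21018 CPM, with *Pf4* the most abundant at 10398 CPM and 19901 CPM and none at 0. *Thbs1* lay at 201 CPM and 305 CPM in these clusters and *F13a1* at 7.09 CPM, from 5 UMIs, and 0 CPM. With all 9 platelet genes present, the names of both clusters are uncertain. Both were kept among the named classes used below to find genes distributed like each member. In macrophage-like cells 5 of 9 platelet genes were detected in each culture, at a summed 1025 CPM in Co-Mac, *Pf4* at 969.9 CPM, and 536 CPM in VD-Mac, *Pf4* at 529 CPM. Among those at 0 were *Gp9*, *Gp1bb* and *Gp1ba* in Co-Mac and *Gp1bb*, *Gp1ba* and *Tubb1* in VD-Mac, and the share of platelet RNA in these cells was not tested.

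Of the 67 other pathway genes, 22 reached 10 CPM in a culture, 2 were called higher and 6 lower, and their median log2 ratio was −0.28, beside 2.16% higher, 4.63% lower and a median of −0.10 over all genes. Coagulation factors had 3 of 14 genes at 10 CPM and no call. Anticoagulants and thrombin receptors had 2 of 13 at 10 CPM, both called lower. Chosen after their values were seen, these were the protein C receptor *Procr*, at 18.8 CPM and 8.98 CPM, and the thrombin receptor *F2rl2*, at 22.9 CPM and 8.26 CPM. Fibrinolysis had 4 of 12 at 10 CPM and 1 call, *Anxa2*, a cell surface binder of plasminogen and its tissue activator, at 471 CPM and 162 CPM. The provisional matrix had 3 of 17 at 10 CPM, of which, chosen after their values were seen, *Vcan* was lower, at 29.2 CPM and 8.72 CPM, and *Tgm2*, a transglutaminase that crosslinks matrix proteins, higher, at 11.7 CPM and 41.1 CPM. Receptors had 10 of 11 at 10 CPM, with *Itgam*, a subunit of the fibrinogen receptor Mac-1, lower at 198.5 CPM and 52.4 CPM, and *Cd36*, a thrombospondin receptor, lower at 182 CPM and 61.4 CPM. *Sdc1*, chosen after its values were seen, was higher, at 12.2 CPM and 30.1 CPM. The fibronectin receptor subunits *Itga5* and *Itgb1*, also chosen after their values were seen, were not called, at 24.9 CPM and 14.7 CPM and at 245 CPM and 209 CPM.

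To see which genes were distributed most like each member, Pearson's r of log2(CPM + 1) was taken over the 17 named classes of at least 50 cells in the 3 libraries, among 6327 genes. Classes of 1 library share its depth and free RNA, and r is a description only. *F7* was closest to *Cd68* (r = 0.94), *Clec4a2* (0.91) and *Clec4a3* (0.91), and *F10* to *Sirpb1c* (0.94), *Cd300lf* (0.93) and *Ccr1* (0.93). *F3* was closest to *Ereg* (0.91), *Cxcl10* (0.91) and *Sntb2* (0.89). *Cd68*, near *F7*, and *Ccr1*, near *F10*, are known from myeloid cells, but whether myeloid genes are frequent among the nearest genes was not tested. *F13a1* was closest to *Ms4a8a* (0.93), *Ccl12* (0.92) and *Nxpe5* (0.91), *Fn1* to *Pmp22* (0.95), *Klf4* (0.94) and *Pdpn* (0.94), and *Thbs1* to *Gm14005* (0.90), *Ier3* (0.89) and *Nfe2l2* (0.88). Among the genes closest to *Plau* were *Fosl1* (0.94) and *Fndc3b* (0.93), while *Plaur* was closest to *Emilin2* (0.94), *Sh2b2* (0.94) and *Slc2a1* (0.93), and *Serpinb2* to *Fam114a1* (0.90), *Cped1* (0.85) and *Egr1* (0.85). Between members, r was highest for *F7* and *Plaur* (0.84) and for *Fn1* and *Plau* (0.81), and lowest for *F3* and *F10* (0.19).

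*F7* and *F10* are neighbours on mouse chromosome 8, on the same strand, with 1498 bases and 0 gene starts between them in RefSeq, yet *F7* was called lower in VD-Mac and *F10* was not. Promoters, from 250 bases before to 50 bases after the gene start, were taken from RefSeq (GRCm38.p6) for 6 of the 9 genes, with none taken for *Fn1*, *Thbs1* and *Plau*, and those of *F7*, *F10* and *Plaur*, on the + strand, are shown because *F7* and *Plaur* were called lower and *F10* lies beside *F7*. On both strands they were searched for TGANTCA, the AP-1 motif, which 7.81% of 32851 promoters hold, for GAGGAAG, a PU.1 motif, which 13.6% hold, and for the DR3 element of the vitamin D receptor, which 0.0396% hold. The promoters lie at chr8:13025784-13026083, chr8:13037058-13037357 and chr7:24462233-24462532. Capitals mark matches, and a match is a description of letters only.
F7: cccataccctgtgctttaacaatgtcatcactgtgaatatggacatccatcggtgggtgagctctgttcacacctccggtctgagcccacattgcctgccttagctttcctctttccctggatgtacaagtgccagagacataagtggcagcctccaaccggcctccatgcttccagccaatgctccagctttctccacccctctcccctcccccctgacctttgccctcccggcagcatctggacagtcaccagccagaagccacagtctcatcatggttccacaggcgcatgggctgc
F10: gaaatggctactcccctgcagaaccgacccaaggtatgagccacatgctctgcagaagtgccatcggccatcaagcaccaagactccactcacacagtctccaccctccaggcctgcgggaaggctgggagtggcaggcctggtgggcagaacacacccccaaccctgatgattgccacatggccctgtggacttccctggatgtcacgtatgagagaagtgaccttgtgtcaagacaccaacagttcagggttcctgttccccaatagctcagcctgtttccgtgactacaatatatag
Plaur: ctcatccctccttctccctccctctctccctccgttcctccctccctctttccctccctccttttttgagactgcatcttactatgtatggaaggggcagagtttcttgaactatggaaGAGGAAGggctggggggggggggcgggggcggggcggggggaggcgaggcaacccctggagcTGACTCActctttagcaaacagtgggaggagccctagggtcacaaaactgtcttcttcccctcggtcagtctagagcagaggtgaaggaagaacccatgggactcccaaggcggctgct
The *Plaur* window holds 1 AP-1 and 1 PU.1 motif, and those of *F7* and *F10* hold 0 of the 3 motifs. The *F3* window holds 2 AP-1 motifs, the 2 overlapping windows of *Serpinb2* hold 1 each, and the 2 windows of *F13a1* hold 2 and 1 PU.1 motifs. No DR3 match was found in the windows of the 6 genes.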

How the data were processed

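RNA of single cells was read in 3 libraries, 1 per condition, so that no replicate and no test was available. The deposited count matrices hold whole UMI counts, for each barcode and mouse gene, that the authors made with Cell Ranger 3.1.0 per the file headers. The labels name mm9 as the build and the paper another, and only gene symbols were used to find the genes. Barcodes with at least 300 genes, under 100000 gene UMIs and under 10% mitochondrial UMIs were kept (92.3% of 7866 in Co-Mac, 90.1% of 9794 in VD-Mac and 81.1% of 2644 in hSTSG), with hashtag antibody UMIs left out. Python 3.11.15, numpy 2.4.6, scipy 1.17.1, pandas 2.3.3, scanpy 1.11.5 (Scrublet) and matplotlib 3.10.9 were used, and Seurat 5.3.0 in R 4.3.3 for clustering of each library (log normalization to 10000, 2000 variable genes without the members and list genes, 15 exact principal components, 15 neighbors, resolution 0.5). A first run used Seurat's approximate principal components, and its classes changed with the processor settings, so exact ones replaced them after its results had been seen. The approximate components were kept as an alternative. The paper's analysis used Seurat 3.1.1.

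A cluster was named for the markers whose log2 ratio to other cells, with 5 CPM added to both levels, had the largest mean, in 2 passes. The first pass took all other clusters as the other cells. The second, which gave the name, took only clusters with a different best set in the first. That mean had to be at least 0.5 with at least 3 markers detected, and haemoglobin genes did not count. A cluster whose median depth was under 1/3 of the library's stayed unnamed unless a marker of its set was among its 10 leading genes. A culture cluster with more markers of another set than of its own among these genes was kept out of the comparison within classes, while graft clusters kept their names. CPM intervals are Poisson, intervals of shares Clopper-Pearson, and intervals of ratios conditional binomial, each at 95%. The members and lists were chosen with earlier results of these data known. Beside the 9 members, list genes were named in the cultures if they were called and reached 50 CPM in a culture, and in the graft if their highest class was at 4 times the next or more, with the 3 largest per list and direction. Up to 3 genes most like each member are given, from those with at least 50 CPM in 1 class. Of the other settings tried, 19 were set at the start and 6 were chosen after seeing the data.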

Additional observations from a re-analysis of the deposited data

Results flagged for a closer look

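Antibody hashtag UMIs, which no comparison of the report uses, came to 1195935 in hSTSG and to 0 in both cultures, which have 10 hashtags each. Of the 20 hashtags in hSTSG 14 had UMIs, nearly all of them in 4 human hashtags, with 106865, 109467, 579695 and 398444, and the next had 1044. The labels do not say which hashtag marks which mouse, and cells were not assigned to mice. This was noted because a signal appears in data that were not analysed, above the level in the cultures.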

How the results depend on the processing

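With 1 library per condition, no spread between mice or dishes is known, and free RNA and doublets stay in the values. No paired analysis was possible because each group has 1 library. Among the 9 genes, 3 were called lower under every setting at the 2-fold limit, *F7*, *Fn1* and *Plaur* each time, and 4 at a 1.5-fold limit, which adds *F10*. Of all 7732 genes, 984 were lower and 465 higher at the 1.5-fold limit, beside 358 and 167 at the 2-fold limit. No called value turned its direction. The number called higher, 0 over all kept cells, was 1, *Serpinb2*, with a mitochondrial limit of 5%, in macrophage-like cells only, and with class levels combined at the shares of Co-Mac. It was also 1 with macrophage-like and neutrophil precursor-like cells together and in macrophage-like cells found with approximate principal components, settings chosen after seeing the data. In the order given, 150 of 7658, 311 of 7853, 187 of 7753, 271 of 7860 and 308 of 7858 genes were called higher under these settings. With at least 50 CPM asked of the higher library, 0 list genes were higher and 3 lower, beside 2 and 6, since fewer genes were compared. Of all 2827 genes at that limit, 75 were higher and 140 lower. The cause of the other moves was not tested. Of 99 log2 ratios of members, 96 lay on the same side of 0 and 48 moved beyond their counting interval. Over the other settings, ranges were −3.36 to −3.03 for *F7*, −3.39 to −2.82 for *Fn1*, −1.88 to −1.03 for *Plaur*, −0.65 to −0.26 for *F10* and −0.36 to 0.25 for *Thbs1*. The highest graft class was the same in 82 of 90 cases, the others being 6 for *Plaur*, 1 for *F10* and 1 for *Thbs1*. The count of 5 genes highest in the monocyte lineage was 6 with the 296 cells of a sub-cluster led by more markers of another set left unnamed, and 4 with the 469 cells of such a cluster left unnamed too, settings chosen after seeing the data, and did not move otherwise. For the counts of 6 and 4 the share of all genes was not taken. Of 18 shares of cells, 13 moved with the thinning depth.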
